A study of Homo sapiens with 8 samples.

Results

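The BCL2 family apoptosis genes described here are BCL2, MCL1, BCL2L1, BCL2L11, PMAIP1, BBC3, BAX, BAK1, BID and BMF, taken by gene symbol with the transcript of the highest mean in each table. All 10 were found among 28248 genes of the all-read table, and 8 of the 10 among 6993 genes of the converted-read table, where BCL2 and BMF had no entry. NALM6 is an established human cell line from a precursor B-cell leukaemia, and here it carried doxycycline-inducible HMGN1, a small nucleosome-binding chromatin protein. RNA made during labelling was read by SLAM-seq, in which 4-thiouridine in new RNA is chemically modified and then appears as T-to-C conversions. The groups were induced mutant (the HMGN1 S20,24E mutant, deficient in nucleosome binding, with doxycycline, 2 libraries), induced wild type (wild-type HMGN1 with doxycycline, 3 libraries) and vehicle (wild-type HMGN1 line without doxycycline, 3 libraries). Doxycycline was given at 100 ng/ml for 6 h, and all 8 cultures received 4-thiouridine at 100 µM for the last 5 h, so that no unlabelled library gives a background conversion rate. The mutant line without doxycycline is not analysed here. The mutant and any difference between the lines therefore cannot be told apart in comparisons of induced mutant with vehicle or with induced wild type. The labels call the replicates biological without saying that they came from separate cultures, and p-values measure the spread between these libraries.

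The BCL2 family decides whether mitochondria release cytochrome c. BCL2, MCL1 and BCL2L1 (which encodes BCL-XL) keep the effectors BAX and BAK1 in check, and the BH3-only proteins, among them the products of BCL2L11 (BIM), PMAIP1 (NOXA), BBC3 (PUMA), BID and BMF, oppose the protective members or engage the effectors. Developing B cells depend on MCL1 and BCL-XL, and BIM sets their numbers. Some of the transcripts, MCL1 among them, are known for fast turnover, so that a large share of their RNA is replaced within hours.

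Depth lay between 7.99 M reads in induced wild type B and 17.7 M reads in vehicle C. The converted share, which is the conversion rate averaged over gene reads, ran from 2.65% in vehicle A to 5.21% in induced wild type C. All 13 precursor B-cell markers lay above 1 CPM, against 0 of 5 T-cell and 0 of 5 erythroid and megakaryocyte markers and 1 of 6 myeloid markers. HMGN1 stood at 223 and 200 CPM in induced mutant, at 252, 217 and 317 CPM in induced wild type and at 191, 153 and 145 CPM with vehicle. Its conversion rate was 4.64% and 2.0% in induced mutant, 4.09%, 3.24% and 7.12% in induced wild type and 1.04%, 1.66% and 1.69% with vehicle, so that all 5 induced libraries lay above the vehicle libraries in both measures. For induced wild type against vehicle the limma adjusted p of HMGN1 was 0.993 in CPM and 0.953 in conversion rate. In converted reads both induced groups overlapped vehicle. There HMGN1 was at 4.15 and 2.62 FPKM in induced mutant, 7.75, 5.39 and 4.94 FPKM in induced wild type and 2.64, 6.04 and 5.44 FPKM with vehicle. Processed copies of HMGN1 could share its reads.

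The first comparison asked which members had the highest conversion rate. The rate is not a share of reads. It is deposited for the same transcript entries as the all reads, which appear to be counted over the whole span with introns. BBC3, the gene of the p53-induced BH3-only protein PUMA, had the highest conversion rate of the 10 in 8 of 8 libraries. It was 13.7% and 12.3% in induced mutant, 14.5%, 12.6% and 15.7% in induced wild type and 11.0%, 15.2% and 15.7% with vehicle. The groups overlapped, and vehicle A was the lowest library. Across 12081 genes with a mean of at least 20 reads the median rate was 5.00% (vehicle A) to 7.37% (induced wild type C), and BBC3 lay at the 98.4th to 99.9th percentile. With vehicle, 14 of the 12081 genes had a higher mean than BBC3. BBC3 was also set beside 3214 genes whose span was within a factor of 2 of its 11.9 kb, and 99.97% of them were lower.

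BAK1, which encodes the effector that resides on mitochondria, came next. Its conversion rate was 8.16% and 9.80% in induced mutant, 11.0%, 8.10% and 10.4% in induced wild type and 8.66%, 9.49% and 9.99% with vehicle, and the groups overlapped. BBC3 exceeded BAK1 by 4.38 percentage points ± 1.41 (SD over 8 libraries). The lead of BAK1 over BCL2L11, the gene of the potent killer BIM, was within the spread, at 0.30 ± 1.42 percentage points and in 6 of 8 libraries. BCL2L1, MCL1, BCL2, PMAIP1 and BAX followed with vehicle means of 8.15%, 7.99%, 7.62%, 7.46% and 7.03%, and no neighbours in that order differed beyond their spread across the 8 libraries. BMF and BID closed the order, with BMF below BAX in 8 of 8 libraries.

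BID, which links death receptors to mitochondria, had a conversion rate of 6.25% and 4.67% in induced mutant, 6.29%, 4.10% and 8.14% in induced wild type and 3.71%, 4.24% and 5.75% with vehicle. It was lower in 8 of 8 libraries than each member apart from BMF. BMF, a BH3-only gene tied to the cytoskeleton, rested on 8 to 36 reads per library, and its rate ran from 1.98% to 9.11%. BMF lay above BID in 4 of 8 libraries, so the order of this pair is not resolved at this depth.

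**Figure D1:**
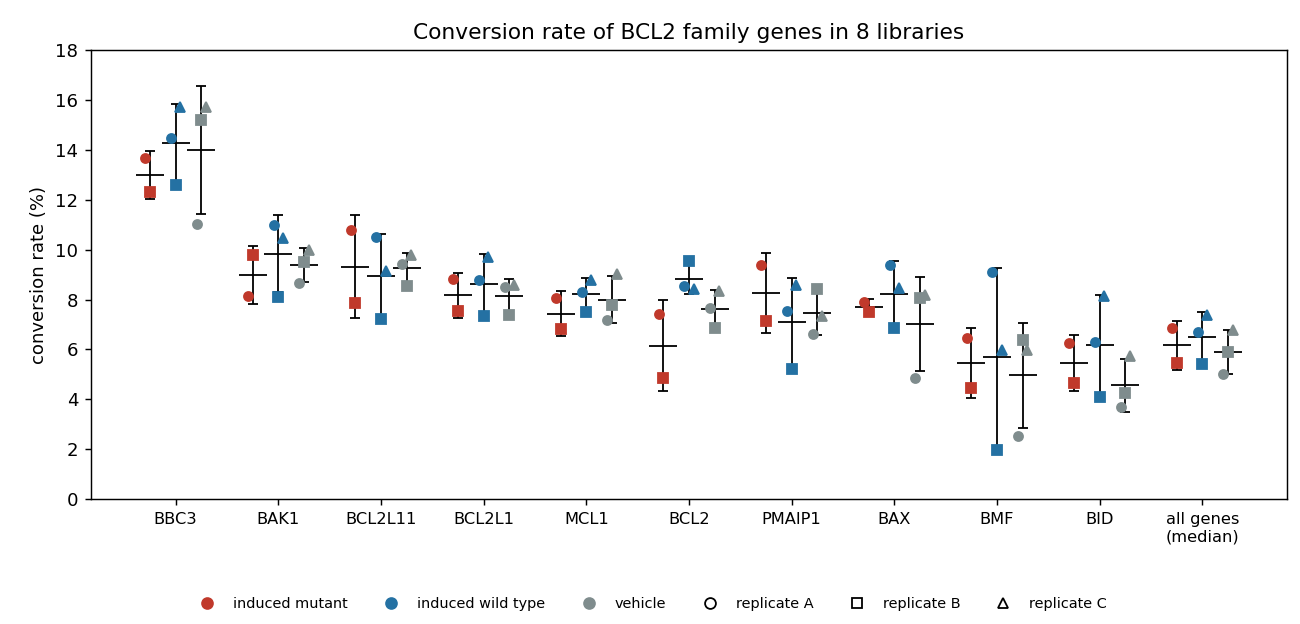
Conversion rate in percent of each member and, at the right, the median of all 12081 genes, in induced mutant (2 libraries), induced wild type (3) and vehicle (3). Points are libraries, with mean and SD in black, and members are ordered by their vehicle mean. BBC3 lies above the other members in every library, and BID and BMF lie lowest with vehicle.

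The members were also split by the reputed lifetime of their transcripts, with MCL1, PMAIP1, BBC3, BMF and BCL2L11 as short-lived, BAX, BAK1, BID and BCL2L1 as stable, and BCL2 apart. The classes did not separate. The ranges of the classes overlapped in 8 of 8 libraries. The short-lived median exceeded the stable one by 0.49 percentage points ± 1.22 in induced mutant (SD, n = 2) and by 0.61 ± 0.10 with vehicle (n = 3), while in induced wild type the difference was -0.06 ± 0.21 (n = 3). BAK1, set as stable, was second in the order with vehicle and BMF, set as short-lived, was ninth. With means in place of medians the difference was 1.11, 0.63 and 1.44 percentage points in induced mutant, induced wild type and vehicle. The short-lived mean is raised by BBC3, at 14.0% with vehicle, where BCL2L11, the next of its class, was at 9.25%.

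AU-rich elements in a 3′ UTR, marked by the pentamer ATTTA and the nonamer TTATTTATT, mark many transcripts of fast turnover. Both motifs were searched on the transcript strand, and a nonamer always holds a pentamer. The pentamer occurred in 65.1% and the nonamer in 7.17% of 15432 UTRs of at least 100 bases, with a median of 1.43 pentamers per kb. MCL1 had the densest UTR of the 9 members measured, with 10 pentamers (3.54 per kb), and PMAIP1 (5, 3.21 per kb) and BCL2 (13, 2.46 per kb) followed. In pentamers per kb MCL1, PMAIP1 and BCL2 lay at the 79.4th, 76.0th and 66.2nd percentile. BCL2 and PMAIP1 held 1 nonamer each, where 19.2% and 8.31% of UTRs of like length held a nonamer. BBC3 and BAK1, the members with the highest conversion rates, held no pentamer at all in UTRs of 880 and 1254 bases. Of UTRs of like length, 69.6% and 78.9% held a pentamer. Of BCL2L1, BCL2L11, BID and BMF, with 3, 8, 2 and 5 pentamers, none exceeded 2.0 per kb. BAX was not measured because its chosen transcript has a UTR under 100 bases. A site from each of the 3 densest UTRs follows, in GRCh38 and read from GENCODE 29, with capitals marking the motif named beside it. In the BCL2 site a pentamer also overlaps each end of the nonamer and runs into the lower-case bases. Every measured member except BBC3 and BAK1 held a pentamer, from BCL2L11, next below BAK1 in conversion rate, to BMF and BID, the lowest with vehicle.
MCL1, chr1:150576222-150576246, minus strand, 2 pentamers: gacctaATTTAactggtgaaATTTA
PMAIP1, chr18:59903963-59903987, plus strand, nonamer: gaataattTTATTTATTttgcctat
BCL2, chr18:63128355-63128379, minus strand, nonamer: aaaaagatTTATTTATTtaagacag

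The second comparison asked whether the total RNA of the members differed between the groups. Every induced library received doxycycline and no vehicle library did. HMGN1 induction and the drug itself therefore cannot be told apart in any comparison with vehicle. All reads, in CPM, appear to be counted over the whole transcript span with introns, so that levels of different genes are not set against each other. The counted region is not stated. Values were identical in 121 of 125 transcript pairs with the same span and different 3′ UTR. They were identical in 528 of 962 pairs with the same 3′ UTR and different span. The use of strand in counting is not stated, and BCL2, BCL2L1, BCL2L11, BAK1, BBC3 and BMF overlap genes on the opposite strand, while MCL1, PMAIP1 and BAX overlap none. limma on log2(CPM + 1), with Benjamini-Hochberg adjustment over 13019 genes, called 0 of the 10 members in any comparison, where the share of all genes called was 0.023% for induced mutant against vehicle, 0.0307% for induced mutant against induced wild type and 0% for induced wild type against vehicle. At an unadjusted p under 0.05 these comparisons held 0, 0 and 1 members, where 3.75%, 2.74% and 0.937% of all genes lay. edgeR and DESeq2 on the recovered reads likewise called 0. In bulk libraries, fewer cells with a transcript and less of it per cell cannot be told apart.

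Among the protective genes, BCL2L1 (BCL-XL) was the member whose induced libraries all lay above vehicle. It stood at 16.4 and 13.7 CPM in induced mutant, at 15.7, 14.5 and 19.1 CPM in induced wild type and at 9.34, 13.5 and 11.6 CPM with vehicle. Neither induced group overlapped vehicle, though induced mutant B and vehicle B lay close together, and the induced groups overlapped each other. On the log2 scale the fold change was 0.37 (SE 0.23, limma adjusted p = 1.00, exact permutation p = 0.2) for induced mutant. For induced wild type it was 0.49 (SE 0.20, limma adjusted p = 0.993, exact permutation p = 0.1, the smallest possible). Both comparisons share the vehicle libraries, and reads of ABALON on the opposite strand may be included.

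BCL2L1 was 1 member of 10 separated upward in induced wild type against vehicle, where 2.52% of all genes were, and 0 members were separated downward, where 1.53% of all genes were. MCL1 was at 38.8 and 25.3 CPM in induced mutant, 37.7, 22.3 and 56.0 CPM in induced wild type and 24.0, 35.5 and 42.9 CPM with vehicle, and its groups overlapped. BCL2, the family's founder, was at 6.75 and 4.83 CPM in induced mutant, 5.77, 5.01 and 9.85 CPM in induced wild type and 4.16, 5.38 and 5.47 CPM with vehicle. Its groups overlapped too, and induced wild type C stood apart as the highest library.

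The effectors did not separate any groups. BAX ran from 30.8 to 34.2 CPM in induced mutant, 33.1 to 37.5 CPM in induced wild type and 30.5 to 35.8 CPM with vehicle. BAK1 ran from 14.3 to 15.6 CPM in induced mutant, 10.9 to 16.9 CPM in induced wild type and 10.1 to 15.4 CPM with vehicle. The annotation holds processed copies of BAK1, with which its reads could be confused.

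Of the BH3-only genes, BID was separated in induced mutant, at 44.0 and 48.4 CPM, against 41.1, 40.9 and 39.6 CPM in induced wild type and 37.6, 39.9 and 38.5 CPM with vehicle. The differences were small, with log2 fold changes of 0.25 (SE 0.14) against vehicle and 0.18 (SE 0.14) against induced wild type, and neither passed limma (adjusted p = 1.00 in both). With BCL2L1 this made 2 of 10 members separated upward in induced mutant against vehicle, where 4.65% of all genes were, and 0 downward, where 11.4% of all genes were. Against induced wild type BID was 1 member of 10 separated upward, where 1.82% of all genes were.

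BMF was at 1.16 and 1.21 CPM in induced mutant, below the 2.09, 1.88 and 2.61 CPM in induced wild type, while vehicle libraries at 0.900, 2.34 and 2.03 CPM spanned both. Its log2 fold change for induced mutant against induced wild type was -0.54 (SE 0.27, limma adjusted p = 1.00), on 12 and 14 reads in the mutant libraries, and it was 1 member of 10 separated downward where 13.2% of all genes were. BBC3 was at 25.7 and 18.2 CPM in induced mutant, 17.1, 13.3 and 18.8 CPM in induced wild type and 9.79, 18.6 and 19.8 CPM with vehicle, with overlapping groups. BCL2L11 ran from 9.91 to 13.2 CPM in induced mutant, 6.89 to 16.7 CPM in induced wild type and 6.41 to 11.2 CPM with vehicle. PMAIP1 ran from 10.8 to 15.2 CPM in induced mutant, 8.89 to 17.5 CPM in induced wild type and 11.0 to 16.5 CPM with vehicle. Neither BCL2L11 nor PMAIP1 separated any groups.

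**Figure D2:**
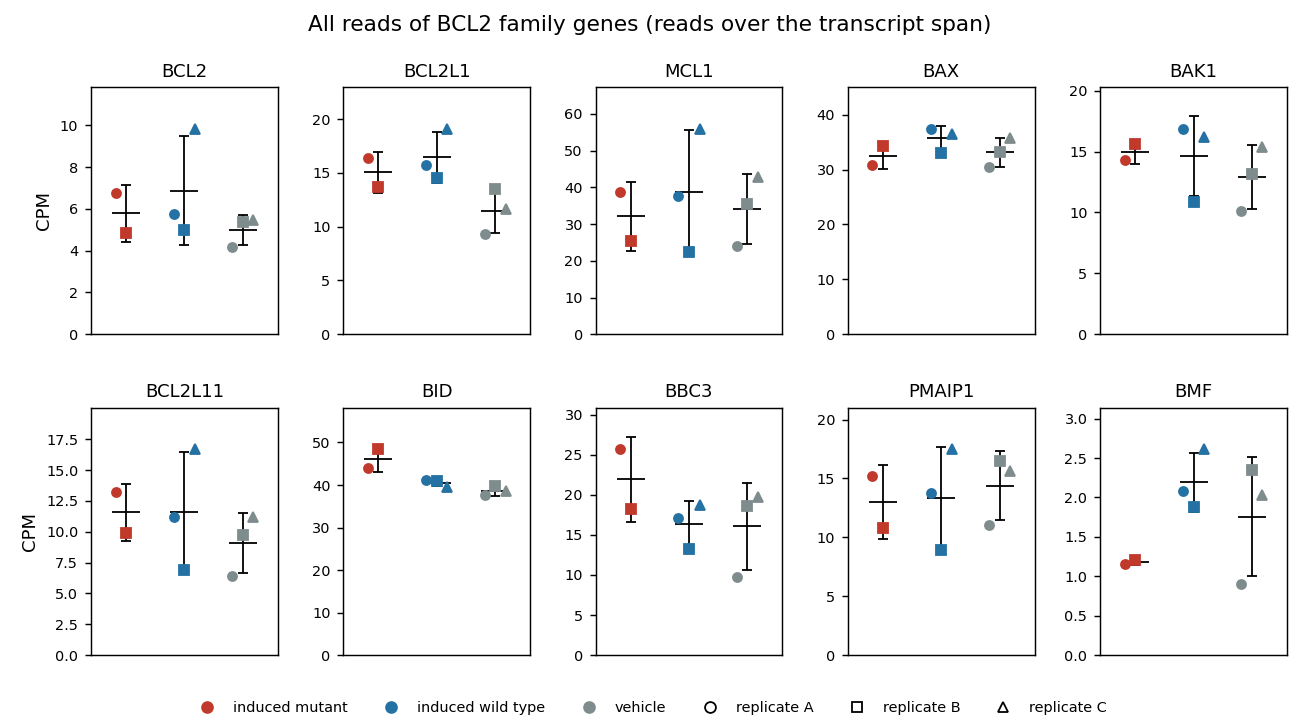
All reads of the 10 members in CPM on linear axes from 0, in induced mutant, induced wild type and vehicle, with mean and SD in black. BCL2L1 lies lower with vehicle than in both induced groups, BID is highest in induced mutant, and MCL1, BCL2L11 and BBC3 spread widely within groups.

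The third comparison asked whether the conversion rate differed between the groups. Rates were tested as log2(percent + 0.1) after each library was centred on its median, and limma called 0 of 10 members, where the share of all 12081 genes called was 0.00828% for induced mutant against vehicle, 0.00828% for induced mutant against induced wild type and 0% for induced wild type against vehicle. At an unadjusted p under 0.05 there were 0 members in each, where 7.25%, 4.97% and 4.49% of all genes lay in the same order. In induced mutant against vehicle 0 of 10 members were separated in either direction, where 6.56% of all genes were separated upward and 4.88% downward.

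BCL2 had the only separated rate. It was 7.44% and 4.88% in induced mutant, 8.55%, 9.55% and 8.42% in induced wild type and 7.64%, 6.88% and 8.36% with vehicle, on 37 to 136 reads. All 3 induced wild-type libraries lay above the other groups, the nearest being vehicle C. BCL2 was 1 of 10 members separated downward in induced mutant against induced wild type, where 8.84% of all genes were (0 upward, where 2.91% were), with a log2 difference of -0.47 (SE 0.20, limma adjusted p = 0.991). In induced wild type against vehicle it was 1 of 10 separated upward, where 5.27% of all genes were (0 downward, where 0.795% were), but after centring its log2 difference was 0.08 (SE 0.18, limma adjusted p = 0.973).

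**Figure D3:**
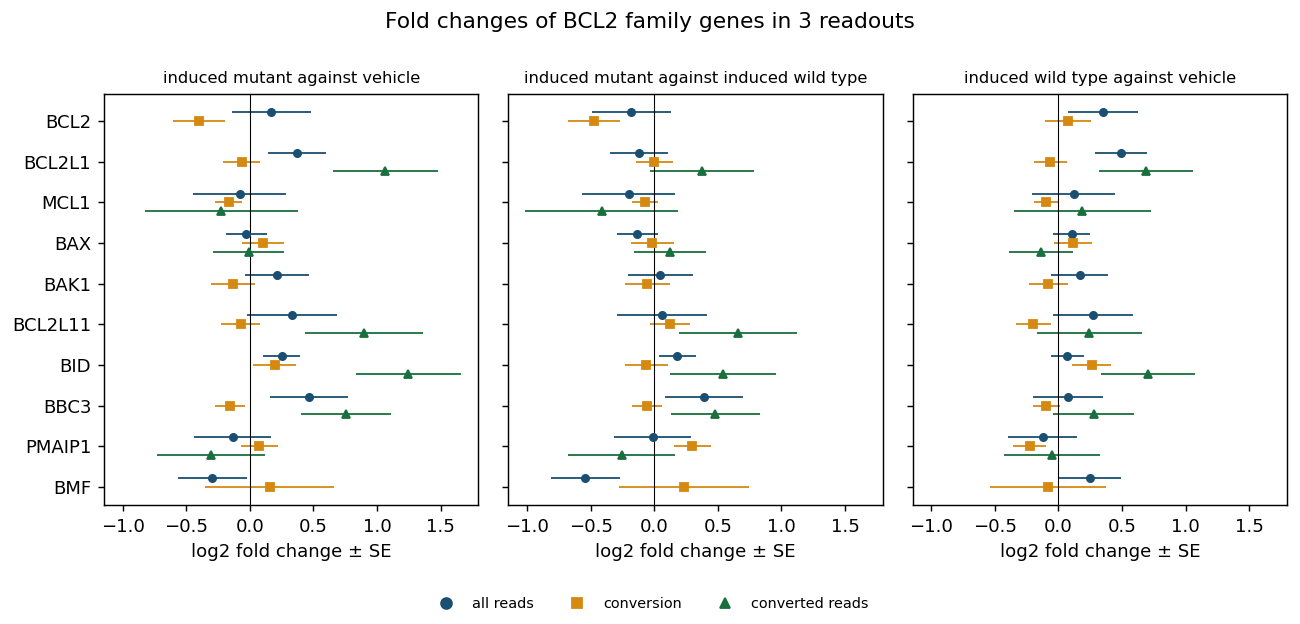
Log2 fold changes with SE from limma for induced mutant against vehicle, induced mutant against induced wild type and induced wild type against vehicle (panels left to right), in all reads, conversion rate and converted reads. No value passed the adjusted threshold. The largest, for BID and BCL2L1 in converted reads of induced mutant against vehicle, are 1.25 and 1.06.

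The fourth comparison used converted reads, deposited as FPKM. In this table a transcript with more exon had the lower value in 184 of 200 pairs that share a span. FPKM is scaled by length, which could also give the order within these pairs, so the pairs alone cannot place the reads. MCL1 averaged 8.64 FPKM in the entry kept, of 3626 exon bases, and 0.63 FPKM in its full-length entry, of 3932 exon bases. How far length accounts for this MCL1 difference was not tested. Of 102 entries without an intron, 96 had no value above 0 in any library. In that respect the values behave as converted reads outside the exons of their own entry. Of the 8 members listed, 7 passed the minimum mean of 1 FPKM. BAK1 did not, at 0.89 and 0.65 FPKM in induced mutant, 0.22, 0.49 and 0.61 FPKM in induced wild type and 0.70 FPKM in vehicle C, and it was listed at 0 in vehicle A and B. limma on log2(FPKM + 1), adjusted over 5737 genes, called 0 of 7 members, where the share of all genes called was 0.401% for induced mutant against vehicle and 0% for both other comparisons. At an unadjusted p under 0.05 there were 3 members for induced mutant against vehicle (BCL2L1, BBC3 and BID), where 11.8% of all genes lay. There were 0 for induced mutant against induced wild type and for induced wild type against vehicle, where 2.95% and 7.93% of all genes lay.

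BCL2L1 again lay above vehicle in every induced library, at 6.82 and 3.58 FPKM in induced mutant, at 3.55, 2.92 and 4.50 FPKM in induced wild type and at 1.57, 2.53 and 1.58 FPKM with vehicle. Relative to vehicle, induced mutant was higher by 1.06 on the log2 scale (SE 0.41, limma adjusted p = 0.312), where the median of all genes was 0.17, and induced wild type by 0.69 (SE 0.37, limma adjusted p = 0.657), where it was 0.23. In induced wild type against vehicle it was 1 of 7 members separated upward, where 10.7% of all genes were, and 0 downward, where 1.26% were.

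BID was at 12.2 and 6.51 FPKM in induced mutant, 5.79, 5.38 and 6.34 FPKM in induced wild type and 1.55, 5.41 and 3.51 FPKM with vehicle, so that both mutant libraries lay above the other 6. Against vehicle its log2 fold change was 1.25 (SE 0.42, limma adjusted p = 0.228, the smallest of any member). BBC3 was at 13.1 and 11.7 FPKM in induced mutant, above the 7.55, 7.81 and 10.7 FPKM of induced wild type and the 4.19, 10.2 and 7.54 FPKM of vehicle, and differed from vehicle by 0.76 in log2 (SE 0.35, limma adjusted p = 0.419) against vehicle. PMAIP1, whose product targets MCL1 for disposal, was at 0.89 and 0.98 FPKM in induced mutant, below vehicle at 1.04, 1.60 and 1.58 FPKM, while induced wild type at 0.90, 1.46 and 1.64 FPKM overlapped both. Its log2 fold change in induced mutant against vehicle was within its SE, at -0.31 (SE 0.42, limma adjusted p = 0.848). Its mean over all libraries, 1.26 FPKM, was near the minimum of 1 FPKM. In induced mutant against vehicle 3 of 7 members were separated upward and 1 downward, where 20.4% and 7.81% of all genes were, and in induced mutant against induced wild type 2 of 7 (BBC3 and BID) were separated upward, where 5.18% of all genes were, and 0 downward, where 11.8% were.

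The lowest converted values of BID, BBC3, MCL1, BCL2L1, PMAIP1 and BAK1 with vehicle were in vehicle A, the library of lowest converted share and lowest summed FPKM (28206, against 34171 and 35726 in vehicle B and C), though BAK1 was also at 0 in vehicle B and BCL2L11 had its highest vehicle value in vehicle A. Its part in these results was not tested. The summed FPKM also differed between the mutant libraries, with 43896 for replicate A and 35608 for replicate B. The largest sum of the 8 libraries was 44733, for induced wild type C. BID, BCL2L1, BCL2L11, MCL1, BBC3 and BAK1 had their higher mutant value in replicate A, and PMAIP1 and BAX in replicate B. How far the larger sum of replicate A gives its higher values was not tested. Without vehicle A the log2 fold change of induced mutant against vehicle was 0.89 for BID, 0.99 for BCL2L1 and 0.45 for BBC3. MCL1 ranged from 3.25 to 10.7 FPKM in induced mutant, from 5.84 to 15.2 FPKM in induced wild type and from 2.10 to 16.2 FPKM with vehicle. BCL2L11 ranged from 2.61 to 5.35 FPKM in induced mutant, from 1.33 to 3.07 FPKM in induced wild type and from 0.95 to 2.62 FPKM with vehicle, and BAX from 19.6 to 29.9 FPKM, from 17.8 to 26.0 FPKM and from 20.3 to 27.9 FPKM in the same groups. These 3 genes overlapped between all groups. For BCL2L11 the overlap with vehicle was narrow, with induced mutant B at 2.61 FPKM and vehicle A at 2.62 FPKM. In log2, BCL2L11 was higher in induced mutant than with vehicle by 0.90, with an SE of 0.46 (limma adjusted p = 0.469). MCL1 and BAX differed by -0.23 and -0.01. In the entry of BCL2L11 that was not kept, the mutant values of 5.04 and 2.61 FPKM lay above the 2.10, 0 and 1.06 FPKM of vehicle.

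**Figure D4:**
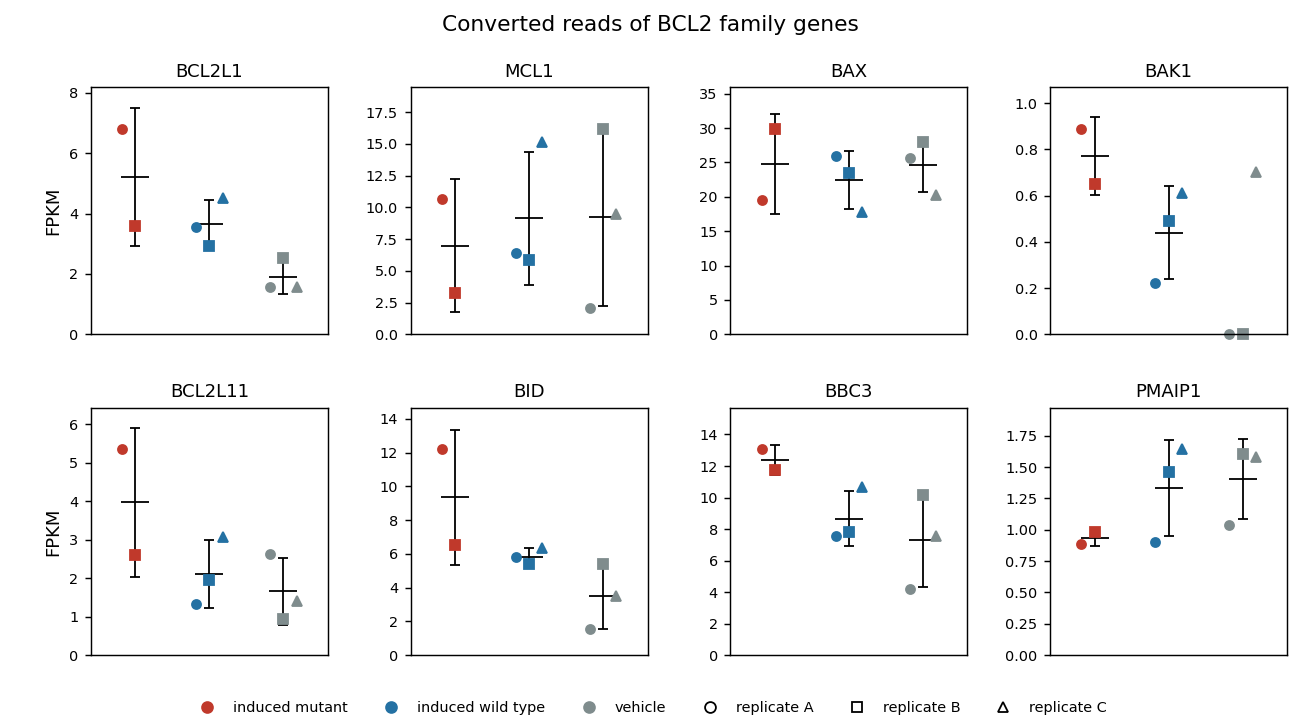
Converted reads of the 8 listed members in FPKM on linear axes from 0, in induced mutant, induced wild type and vehicle, with mean and SD in black except for BAK1 with vehicle, where values of 0 are listed. BCL2L1 lies lowest with vehicle, both mutant libraries of BID and BBC3 lie above all other libraries, and MCL1 spreads from 2.10 to 16.2 FPKM.

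The level of several members followed the converted share of the library, a relation chosen after seeing the data. The share weights the rate of each gene by its reads, so it is built in part from the levels set against it. How far this alone gives the slopes and their p-values was not tested. For MCL1, log2(CPM + 1) rose by 0.49 per percentage point of converted share (SE 0.07, limma adjusted p = 7.57e-05 over all genes, 8 libraries), and for BCL2L11 by 0.46 (SE 0.08, limma adjusted p = 0.000202). BBC3 (0.36), BCL2 (0.35), PMAIP1 (0.29), BCL2L1 (0.27) and BAK1 (0.23) also passed, while BAX, BID and BMF, at 0.07, 0.00 and 0.23, did not. So 7 of 10 members rose with the share, where 51.4% of all 13019 genes did, and 0 fell, where 7.63% did. The median slope of all genes was 0.22. The same 7 passed with group means in the fit, and with depth as a covariate 5 did (BCL2, MCL1, BCL2L1, BCL2L11 and BBC3). The calls depended on the extreme libraries. Without vehicle A and induced wild type C, the libraries farthest from the median share, 0 of 10 members and 0% of all genes passed. Most slopes were of similar size over the 6 libraries left, with larger SEs, at 0.56 (SE 0.13) for MCL1, 0.42 (SE 0.15) for BCL2L11, 0.36 (SE 0.15) for BBC3, 0.39 (SE 0.16) for PMAIP1 and 0.19 (SE 0.15) for BAK1. Those of BCL2 and BCL2L1 were smaller, at 0.22 (SE 0.15) and 0.04 (SE 0.14). Without induced wild type C alone 3 passed, and without vehicle A alone 4 passed.

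**Figure D5:**
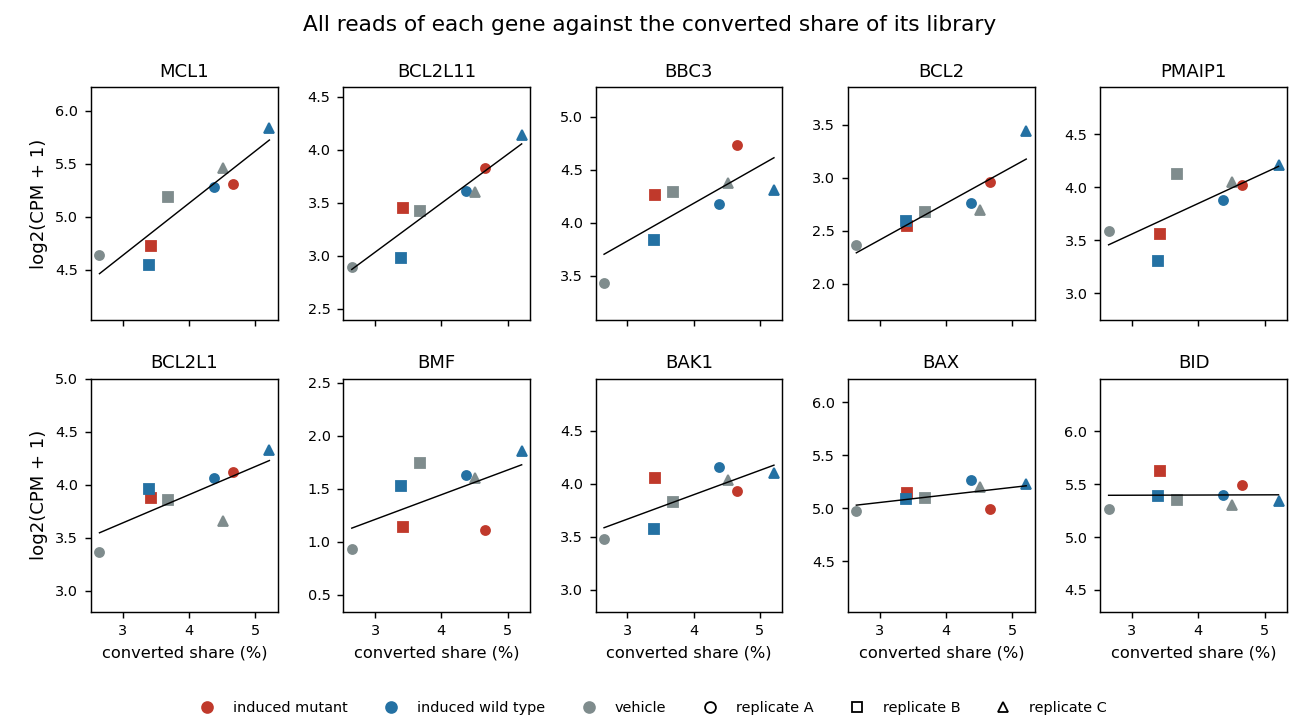
All reads of each member as log2(CPM + 1) against the converted share of its library in percent, for 8 libraries, with the fitted line and panels ordered by slope. Every vertical axis spans the same number of log2 units. MCL1 and BCL2L11 rise most steeply from vehicle A at the left to induced wild type C at the right, while BAX and BID are nearly flat.

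Around the 10 members, 53 further apoptosis genes were examined, covering other BCL2 relatives, the apoptosome and caspases, caspase inhibitors and death receptors, and regulators of the members. limma called 0 of them in any comparison, of 47 tested in all reads, 46 in conversion and 27 in converted reads. At an unadjusted p under 0.05 there were 1, 2 and 3 of them in all reads, conversion and converted reads for induced mutant against vehicle, 1, 3 and 0 for induced mutant against induced wild type, and 0, 0 and 3 for induced wild type against vehicle. The shares of all genes at that p were 3.75%, 7.25% and 11.8% in the first of these comparisons, 2.74%, 4.97% and 2.95% in the second and 0.937%, 4.49% and 7.93% in the third.

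The BCL2 relative BNIP3L, a mitophagy receptor, had the smallest p in all reads, at 6.16 ± 0.67 CPM in induced mutant (SD, n = 2), 11.6 ± 1.37 in induced wild type (n = 3) and 13.8 ± 0.66 with vehicle (n = 3). Its log2 fold change was -1.05 (SE 0.21, limma adjusted p = 0.368) against vehicle and -0.81 (limma adjusted p = 1.00) against induced wild type. In converted reads FOXO1, a transcription factor that activates BIM and PUMA genes, averaged 10.3 ± 1.74 FPKM in induced mutant, 7.25 ± 3.02 in induced wild type and 3.27 ± 0.20 with vehicle. Its log2 fold change against vehicle was 1.40 (SE 0.36, limma adjusted p = 0.114) in induced mutant and 0.89 (SE 0.32, adjusted p = 0.570) in induced wild type, and the induced groups overlapped. MDM2, the inhibitor of p53, averaged 16.4 ± 6.14 FPKM in induced mutant, 10.4 ± 4.46 in induced wild type and 5.91 ± 1.05 with vehicle, with log2 fold changes against vehicle of 1.30 (SE 0.37, limma adjusted p = 0.142) in induced mutant and 0.67 (SE 0.33, adjusted p = 0.634) in induced wild type. In conversion rate the smallest p was that of HTRA2, a mitochondrial protease released in apoptosis, at 7.94% ± 0.09 in induced mutant, 6.86% ± 1.52 in induced wild type and 5.85% ± 0.69 with vehicle (limma adjusted p = 0.639 for induced mutant against vehicle), and induced wild type overlapped both other groups. With vehicle the highest rates among those of these genes with a mean of at least 20 reads were 10.6% ± 1.63 for FADD, 9.27% ± 1.43 for TNFRSF10B and 9.23% ± 2.02 for FOXO3, all below the 14.0% ± 2.56 of BBC3. The lowest at that depth were 1.69% ± 0.93 for BNIP3L, 2.79% ± 0.52 for ENDOG and 2.82% ± 0.65 for AIFM1.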

How the data were processed

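RNA of 8 NALM6 libraries was prepared with 4 µg of input RNA. The genome build was hg19 (GRCh37), per the submitters' processing notes. Which aligner and conversion caller were used, and whether strand was, is not given in the sources used here. All-read values, named CPM per the file headers, are a deposited signal per transcript, and 100% of them were whole reads within 0.1 read. The conversion rate is a deposited fraction per transcript, printed as a percent. Of 12594 entries with exactly 1 read and a rate above 0, 12527 lay between 0 and 1, so it is not a share of reads. Converted reads were deposited as FPKM.

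The 61177 and 10032 entries were reduced to 1 transcript per gene, that of the highest mean. Names missing from 25396 entries came from RefSeq for 24846. Motifs came from GENCODE 29 transcripts. Groups were compared in limma 3.58.1 (R 4.3.3) in a single model of all 8 libraries, on genes with a mean of at least 1 CPM or FPKM, or 20 reads for conversion, at an adjusted p of 0.05. A pseudocount of 1 understates folds of low genes. Recovered reads were tested with edgeR 4.0.16 and DESeq2 1.42.0. Exact permutation tests were two-sided, with a smallest p of 0.1. Fits were run on simulated data for induced wild type against vehicle only, with changes larger than any fold change printed for a member. The simulation therefore does not show whether changes of the size seen in members could be detected. Without counts of converted bases, no counting interval was given for rates. Alternatives changed pseudocounts, filters, centring, transcripts, the replicate block, the groups fitted and single libraries.

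Members, lifetime classes and lists were chosen with earlier results of these data known. Genes named were the members, HMGN1 and, of the wider lists, those of smallest p and of extreme conversion, of which some are not described.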

Additional observations from a re-analysis of the deposited data

How the results depend on the processing

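Of 1220 member values under the alternatives, 0 passed the adjusted threshold and 115 changed sign. The smallest adjusted p was 0.140, for BID in converted reads of induced mutant against vehicle with the replicate block. Letters did not pair the libraries (correlations of all-read deviations 0.29, -0.36 and 0.65 for induced wild type and vehicle). Counts over all genes moved more. In all reads, induced wild type against vehicle gave 0 genes, and 3 with median centring, the replicate block, edgeR, DESeq2 or edgeR with DESeq2 size factors. Induced mutant against vehicle gave 3, but 14 with only these groups fitted, 1 with the replicate block, 5 with edgeR, 5 with DESeq2 size factors in edgeR, 73 with DESeq2, and 0 to 13 with a library left out. Induced mutant against induced wild type gave 4, 14 with DESeq2, and 0 to 4 with a library left out. In conversion, induced mutant against vehicle and against induced wild type gave 1 each, 0 at a minimum of 50 reads, and up to 3 with a library left out, and induced wild type against vehicle 0, or 0 to 1. In converted reads, induced mutant against vehicle gave 23, but 1 with a pseudocount of 0.1, 41 with median centring, 1 with only these groups, 149 with the replicate block, and 0 to 68 with a library left out. Induced mutant against induced wild type gave 0, 1 with a pseudocount of 0.1 or only these groups, and 0 to 3 with a library left out, and induced wild type against vehicle 0, or 0 to 1. The short-lived minus stable difference in induced wild type was 0.15 percentage points at 50 reads, which leaves out BMF, and 0.63 with means. With vehicle it was 1.13 at 50 reads, 0.47 with BCL2 as short-lived and 1.44 with means. Members rising with the converted share numbered 0 without both extreme libraries and 3 to 8 with 1 library left out. Where no construction shows it, the cause was not tested. Depth limits BMF most, at 8 to 36 reads per library.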
